A study of Mus musculus with 6 samples.

Results

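Fatty acid oxidation and PPARA target genes were followed in mouse ileum, the last stretch of the small intestine, across 36 named genes. A gene entered when the platform annotation gave it a probe set of its own, and 35 of the 36 had at least 1 such probe set. Ucp2, a carrier of the inner mitochondrial membrane, had none and was not analysed here. Acot2, a mitochondrial acyl-CoA thioesterase, read 2.1 to 22.8 on the 6 arrays and lay below the filter on low signal, so 34 genes were tested, against 7919 genes tested in the whole series. The members comprised 17 mitochondrial, 7 peroxisomal and 5 regulatory genes. The other 7, of which 5 were tested, were grouped as lipid handling, a mixed class that also holds acyl-CoA thioesterases, Ucp2 and the pantetheinase Vnn1. All members together were represented by 58 probe sets, and 3 more that the annotation assigns to a member together with another gene were not used.

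The 6 arrays fell into 3 groups of 2, all from male, wild type mice of 8 to 10 months and mixed C57BL/6:129Sv strain. In BDL_GW4064 mice the common bile duct was ligated, and they were gavaged with GW4064, which activates the bile acid receptor FXR. The daily dose was 100 mg/kg, starting 2 days ahead of the operation and ending 5 days later. BDL_Vehicle mice had the same ligation with the carrier alone, made with Tween80 and methylcellulose, and Sham_Vehicle mice had the duct freed but not tied and also received vehicle. Whether 2 arrays of a group stand for different mice is not stated. The p-values here only set group differences against the spread between arrays of a group, which could be technical.

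Beta-oxidation shortens fatty acids step by step to acetyl-CoA. Long chains enter mitochondria as carnitine esters and are then cut by chain-length-specific enzymes, while very long and branched chains start in peroxisomes. PPARA is a nuclear receptor that binds fatty acids and, as a dimer with RXR, switches on genes of both organelles and of lipid uptake. In the gut it acts mainly in the absorptive enterocytes, where dietary fat arrives with the help of bile acids. Dimers of this kind are known to bind a direct repeat of the half-site AGGTCA with 1 base between the copies.

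The promoters of 31 members were available from RefSeq (build GRCm38.p6), and the 250 bases upstream of each start were searched on both strands for AGGTCANAGGTCA with at most 2 mismatches in its 12 fixed positions. A match occurred in 4 of the 31 genes (12.9%), against 3.24% of all 32851 promoters searched. All 4 matches lay on the strand opposite to the gene and are shown with 24 bases on either side, with the matched stretch in capitals, so that each can be set against the levels of its gene given further on. The Fabp1 window lies at chr6:71199788-71199848 on the plus strand, that of Cd36 at chr5:17835923-17835983, that of Plin2 at chr4:86670248-86670308 and that of Etfa at chr9:55512284-55512344, each of these 3 on the minus strand.
Fabp1: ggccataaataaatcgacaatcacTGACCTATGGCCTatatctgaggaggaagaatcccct
Cd36: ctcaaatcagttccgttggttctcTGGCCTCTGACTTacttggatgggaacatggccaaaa
Plin2: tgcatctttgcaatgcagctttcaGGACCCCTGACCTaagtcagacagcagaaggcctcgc
Etfa: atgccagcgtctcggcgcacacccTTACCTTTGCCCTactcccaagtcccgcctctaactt
Fabp1 had 1 mismatch and the other three had 2. Pdk4 and Acaa1b, whose BDL_GW4064 arrays stood above all others, had neither a match nor a single exact copy of AGGTCA on either strand in this window. Such a copy was present in 7 of the 31 members (22.6%) and in 14.0% of all promoters. Among the genes with a match, Plin2 also had both BDL_GW4064 arrays above all others, at 924.4 and 898.3 against at most 807.5. Fabp1, Cd36 and Etfa did not. Other members stood so too, among them Cpt1a and Acot1. Only 1 motif and 1 mismatch limit were searched, and the sequences printed were chosen after the matches were seen. A match describes letters and is not a binding site, and a window without one says nothing about more distant sequence. The 250 bases before Pdk4 (chr6:5496279-5496528, minus strand) and before Acaa1b (chr9:119157094-119157343, minus strand) are given for comparison.
Pdk4: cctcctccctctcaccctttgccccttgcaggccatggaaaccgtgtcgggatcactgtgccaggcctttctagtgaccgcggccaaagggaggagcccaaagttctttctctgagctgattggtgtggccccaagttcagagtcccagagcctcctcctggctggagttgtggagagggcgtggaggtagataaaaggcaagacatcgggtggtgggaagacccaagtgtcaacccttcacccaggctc
Acaa1b: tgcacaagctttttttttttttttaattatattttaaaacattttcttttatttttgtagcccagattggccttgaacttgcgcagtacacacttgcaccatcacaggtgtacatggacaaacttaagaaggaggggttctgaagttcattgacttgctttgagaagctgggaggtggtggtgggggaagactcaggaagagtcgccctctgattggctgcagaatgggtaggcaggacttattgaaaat

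Intestinal identity and the action of the drug were checked on the same arrays. The 8 measured enterocyte markers summed to 36399 and 31935 in BDL_GW4064, 34380 and 35810 in BDL_Vehicle and 36332 and 35162 in Sham_Vehicle. Fgf15, an ileal FXR target, read 972.1 and 809.6 in BDL_GW4064, 5.5 and 3.4 in BDL_Vehicle and 316.2 and 479.6 in Sham_Vehicle. Liver and pancreas markers were near background, with 4 of 5 and 3 of 4 below a signal of 37.1 on every array. Other cell types were not evenly represented. The 9 smooth muscle markers summed to 910.9 and 10362 in BDL_GW4064, 536.7 and 748.5 in BDL_Vehicle and 784.9 and 907.3 in Sham_Vehicle, so BDL_GW4064 replicate 2 stood apart. The 6 measured adipose markers summed to 469.6 and 1717.7, 223.8 and 531.8, and 344.8 and 731.2 in the same order of groups, and the 7 fibroblast markers to 2544 and 3241, 796.2 and 1204, and 796.6 and 1400. The arrays also split on the 18S rRNA control at its 5' end. It lay at 8.6 to 13.3 on the pair from BDL_GW4064 and on BDL_Vehicle replicate 2, but at 67.3 to 88.7 on the remaining 3, which are BDL_Vehicle replicate 1 and the Sham_Vehicle pair. The actin 3' to 5' ratio was 1.73 in Sham_Vehicle replicate 2 and 1.09 to 1.22 in the rest. In whole tissue, fewer cells of a type and less RNA per cell cannot be told apart.

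None of the 34 members passed the threshold of an adjusted p of 0.05 in any of the 3 comparisons (limma, Benjamini-Hochberg over 13575 probe sets). Over all probe sets, 0.0295% passed for BDL_Vehicle against Sham_Vehicle, 0.0516% for BDL_GW4064 against BDL_Vehicle and 0.0368% for BDL_GW4064 against Sham_Vehicle. With each gene taken at its brightest probe set, the shares were 0.0379%, 0.0884% and 0.0253% of 7919 genes in the same order. The values below are therefore differences that did not pass, given with their standard errors on the scale of log2(signal + 4), which understates the change of dim genes. At an unadjusted p under 0.05, 8 members were higher and 0 lower in BDL_GW4064 than in BDL_Vehicle, where 5.06% of all genes were higher and 2.41% lower, and these 8 include Pdk4 and Acot1, which were tested only because of their BDL_GW4064 arrays. The same count was 1 higher and 3 lower in BDL_Vehicle than in Sham_Vehicle (2.95% and 3.04% of all genes), and 10 higher and 2 lower in BDL_GW4064 than in Sham_Vehicle (7.15% and 7.08%). Without Pdk4 and Acot1 the last count was 8 higher and 2 lower. The 2 comparisons with GW4064 share their BDL_GW4064 arrays, and the ligation comparison shares a group with each.

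**Figure D1:**
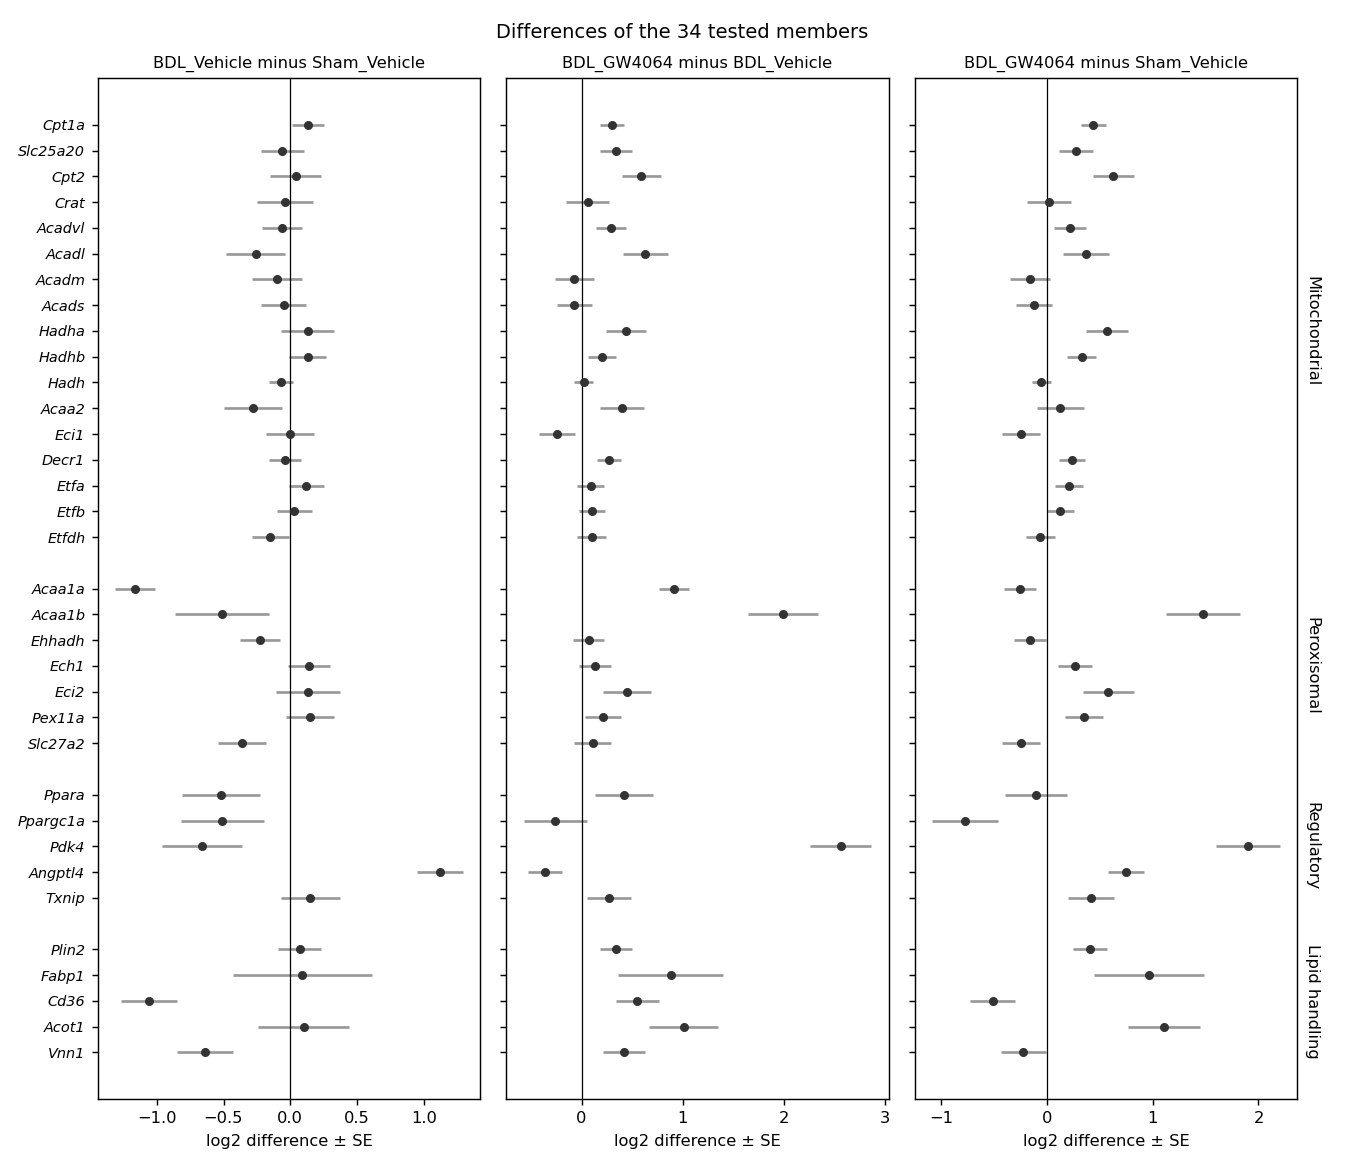
Log2 difference ± SE (x axis, log2(signal + 4) scale) of the 34 tested members (rows, by class) in the 3 comparisons (panels, each with its own x range). With GW4064, Acaa1b lies at 1.99, and the fitted Pdk4 point at 2.56 stands against BDL_Vehicle signals below 37.1, where only the bound of 3.43-fold holds. Acaa1a and Cd36 lie farthest left after ligation at -1.16 and -1.06.

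Among the regulatory members, Pdk4 had its highest signals in BDL_GW4064. It encodes the kinase that inhibits pyruvate dehydrogenase and so spares glucose when fat is burned. Its signal was 144.0 and 130.7 in BDL_GW4064, 16.1 and 24.5 in BDL_Vehicle and 41.8 and 27.3 in Sham_Vehicle. Both BDL_GW4064 arrays were above all others. Both BDL_Vehicle signals and that of Sham_Vehicle replicate 2 lay below 37.1, the signal that marked the lowest 40% of probe sets. The order of signals below 37.1 was not read. With both BDL_Vehicle signals there, Pdk4 was at least 3.43-fold higher in BDL_GW4064 than in BDL_Vehicle (limma adjusted p = 0.0502). The mean of its 4 vehicle arrays (4.91 on the log2 scale) lay under the edge of the filter (5.36), so the gene was tested only because of its BDL_GW4064 arrays, and its p-values are given as a description. Against Sham_Vehicle, where 1 array was above 37.1, the log2 difference was 1.90 ± 0.30 (limma adjusted p = 0.141), and it was 1.97 without BDL_GW4064 replicate 2, the array rich in smooth muscle RNA. The GW4064 comparison gave Pdk4 an adjusted p of 0.0344 with a pseudocount of 16, 0.0353 with a robust prior, 0.0486 with median centring and 0.05 where genes were averaged over probe sets, over a range of 0.0344 to 0.375 among all alternatives, with the same limit.

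Angptl4, a secreted inhibitor of lipoprotein lipase and another known PPARA target, ran in a different order of groups. It read 401.4 and 384.8 in BDL_GW4064, 568.9 and 450.1 in BDL_Vehicle and 215.5 and 248.6 in Sham_Vehicle. The 3 groups did not overlap, with BDL_Vehicle the highest and Sham_Vehicle the lowest. BDL_Vehicle exceeded Sham_Vehicle by 1.12 ± 0.17 on the log2 scale (limma adjusted p = 0.2). BDL_GW4064 exceeded Sham_Vehicle by 0.75 ± 0.17 (limma adjusted p = 0.176) and stood below BDL_Vehicle, with a log2 difference of -0.36 ± 0.17 (limma adjusted p = 0.694). Its other probe set read 0.2 to 5.5 and was below the filter.

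The receptor gene itself, Ppara, was dim. It read 119.7 and 79.8 in BDL_GW4064, 76.0 and 68.6 in BDL_Vehicle and 135.4 and 81.3 in Sham_Vehicle. BDL_Vehicle was lower than both other groups on each array, but the log2 differences were -0.52 ± 0.29 against Sham_Vehicle (limma adjusted p = 0.755) and 0.42 ± 0.29 for BDL_GW4064 over BDL_Vehicle (limma adjusted p = 0.841), close to the spread between arrays of a group.

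Ppargc1a, the coactivator PGC-1alpha that drives mitochondrial gene programmes, was lower in BDL_GW4064 than in Sham_Vehicle on every probe set, with no overlap. Its brightest probe set read 213.9 and 210.1 in BDL_GW4064, 205.9 and 315.5 in BDL_Vehicle and 267.7 and 496.7 in Sham_Vehicle. BDL_GW4064 was below both Sham_Vehicle arrays, with a log2 difference of -0.77 ± 0.31 (limma adjusted p = 0.284), while on this probe set it overlapped BDL_Vehicle. On each of the other Ppargc1a probe sets BDL_GW4064 was below BDL_Vehicle without overlap, by log2 differences of -0.63 to -0.42. Over the gene's 5 probe sets the log2 differences from Sham_Vehicle were -0.77 to -1.35. The smallest limma adjusted p among the 5 was 0.176, for a probe set that read 80.9 and 85.0 in BDL_GW4064, 119.8 and 127.0 in BDL_Vehicle and 143.7 and 183.6 in Sham_Vehicle, where the 3 groups did not overlap. The highest array on all 5 was Sham_Vehicle replicate 2, whose actin ratio was 1.73, and without it the log2 difference of the brightest probe set was -0.33, against -1.21 without Sham_Vehicle replicate 1. Txnip, an inhibitor of thioredoxin and of glucose uptake, read 1260 and 1468 in BDL_GW4064, 994.5 and 1280 in BDL_Vehicle and 827.1 and 1255 in Sham_Vehicle on its brighter probe set, and BDL_GW4064 was above Sham_Vehicle by 0.42 ± 0.22 (limma adjusted p = 0.385). Its dimmer probe set read 865.6 and 929.2 in BDL_GW4064, 547.0 and 835.7 in BDL_Vehicle and 440.0 and 509.4 in Sham_Vehicle, with 0.92 ± 0.20 over Sham_Vehicle (limma adjusted p = 0.176).

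**Figure D2:**
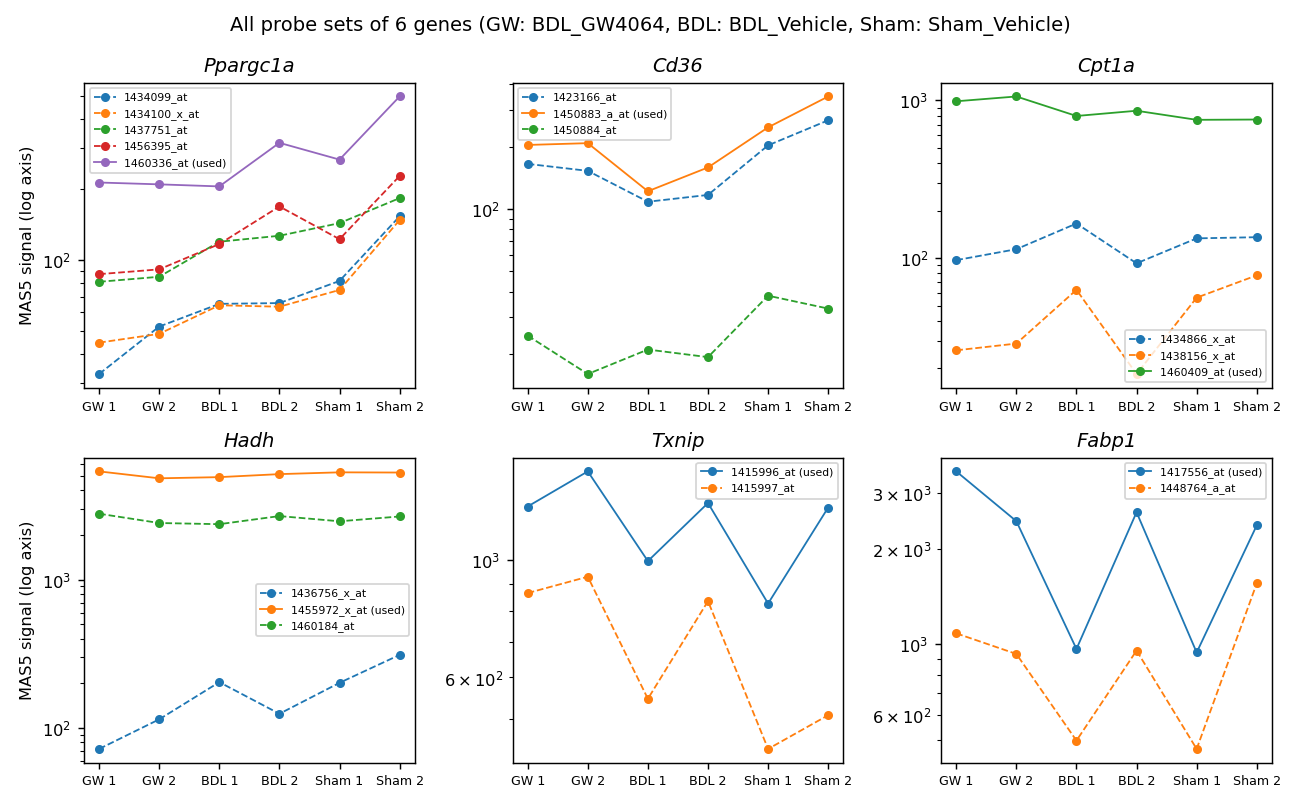
MAS5 signal (y axis, log scale) of every probe set of 6 genes on the 6 arrays, with lines that only join the points of a probe set and a solid line for the probe set used. The 5 Ppargc1a probe sets are lower in BDL_GW4064 than in Sham_Vehicle, and the brightest has its lowest array, 205.9, in BDL_Vehicle, while the dim Cpt1a and Hadh probe sets do not follow the bright ones.

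The peroxisomal members were led by the thiolases, which carry out the last step of each oxidation round. Acaa1a read 273.7 and 245.3 in BDL_GW4064, 133.1 and 139.5 in BDL_Vehicle and 298.9 and 319.0 in Sham_Vehicle. BDL_Vehicle arrays were far below the other four, and the BDL_GW4064 arrays were a little below Sham_Vehicle. The log2 difference was -1.16 ± 0.15 for BDL_Vehicle against Sham_Vehicle (limma adjusted p = 0.121) and 0.91 ± 0.15 for BDL_GW4064 against BDL_Vehicle (limma adjusted p = 0.165). Its dimmer probe set had the same signs, at -0.66 and 0.22, and the mean over both was 0.56 in the GW4064 comparison. With BDL_Vehicle replicate 1 or 2 left out, the ligation value was -1.12 or -1.19.

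The sister gene Acaa1b stood differently. It read 244.2 and 234.7 in BDL_GW4064, 42.8 and 76.1 in BDL_Vehicle and 59.9 and 115.1 in Sham_Vehicle. Both BDL_GW4064 arrays were above all others, and BDL_Vehicle overlapped Sham_Vehicle. BDL_GW4064 exceeded BDL_Vehicle by 1.99 ± 0.35 on the log2 scale (limma adjusted p = 0.19) and Sham_Vehicle by 1.48 ± 0.35 (limma adjusted p = 0.176), the last being 0.71 with the 18S array set as a term. Acaa1a and Acaa1b are close copies, and 2 further probe sets are annotated to both, so part of either signal may come from the other gene. Signal of 1 probe set was not set against that of the other.

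The remaining peroxisomal genes differed less. Eci2, which isomerises unsaturated acyl-CoA, read 470.4 and 508.9 in BDL_GW4064, 290.3 and 441.8 in BDL_Vehicle and 274.7 and 389.2 in Sham_Vehicle, with a log2 difference of 0.58 ± 0.24 over Sham_Vehicle (limma adjusted p = 0.298). That difference was 0.33 without Sham_Vehicle replicate 1 and -0.02 with the 18S array set as a term. The bifunctional enzyme Ehhadh, the isomerase Ech1, the peroxisome division factor Pex11a and the very-long-chain acyl-CoA synthetase Slc27a2 were compared on their brightest probe sets. They had log2 differences of 0.07 to 0.21 for BDL_GW4064 against BDL_Vehicle and of -0.36 to 0.15 for BDL_Vehicle against Sham_Vehicle. The dimmer Pex11a probe set went the other way with GW4064, at -0.09 ± 0.22 (limma adjusted p = 0.971), with overlap. On the brightest probe sets, all 7 peroxisomal genes had higher mean values in BDL_GW4064 than in BDL_Vehicle. For 4 of them this was without overlap of arrays, as for 19.1% of all genes.

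The mitochondrial members were bright and differed by smaller amounts. Cpt1a, the gate for long-chain entry, read 986.1 and 1057.8 in BDL_GW4064, 795.7 and 858.8 in BDL_Vehicle and 752.2 and 755.5 in Sham_Vehicle. The 3 groups did not overlap, and BDL_GW4064 exceeded BDL_Vehicle by 0.30 ± 0.12 (limma adjusted p = 0.605) and Sham_Vehicle by 0.44 ± 0.12 (limma adjusted p = 0.2). Its 2 dimmer probe sets had lower values in BDL_GW4064 than in Sham_Vehicle, 1 by a log2 difference of -0.34 and the other, whose BDL_GW4064 signals of 26.0 and 28.7 lay below 37.1, at least 1.70-fold. The mean over its probe sets, which includes that dim one, was -0.08 for BDL_GW4064 against BDL_Vehicle and -0.36 against Sham_Vehicle. Cpt2, which returns the chain to CoA inside, read 1309 and 1021 in BDL_GW4064, 650.5 and 906.7 in BDL_Vehicle and 724.2 and 768.5 in Sham_Vehicle. Its log2 difference over BDL_Vehicle was 0.59 ± 0.19 (limma adjusted p = 0.487) and 0.35 without BDL_Vehicle replicate 1. Against Sham_Vehicle it was 0.63 ± 0.19 (limma adjusted p = 0.21), and 0.15 with the 18S array set as a term. The dimmer Cpt2 probe set, below the filter and not tested, went the other way against Sham_Vehicle. It read 30.6 and 27.7 in BDL_GW4064 and 59.1 and 53.5 in Sham_Vehicle, at least 1.465-fold lower in BDL_GW4064. Its BDL_Vehicle signals also lay below 37.1, so BDL_GW4064 and BDL_Vehicle could not be ordered on it.

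Acadl, the long-chain acyl-CoA dehydrogenase, read 1762 and 1722 in BDL_GW4064, 985.7 and 1286 in BDL_Vehicle and 1067 and 1707 in Sham_Vehicle. BDL_GW4064 was above BDL_Vehicle by 0.63 ± 0.22 (limma adjusted p = 0.554), with 1 Sham_Vehicle array at the same level. Hadha and Hadhb encode the trifunctional protein, which takes long chains through the following steps. Hadha read 1290 and 1039 in BDL_GW4064, 698.8 and 1034 in BDL_Vehicle and 813.3 and 742.7 in Sham_Vehicle. Hadhb read 1518 and 1348 in BDL_GW4064, 1120 and 1378 in BDL_Vehicle and 1094 and 1184 in Sham_Vehicle. On their brightest probe sets, both exceeded Sham_Vehicle, by 0.57 ± 0.20 (limma adjusted p = 0.249) and 0.33 ± 0.14 (limma adjusted p = 0.309). These values were 0.01 and 0.03 with the 18S array set as a term. The dimmer Hadhb probe set went the other way, reading 637.3 and 741.9 in BDL_GW4064, 934.3 and 683.0 in BDL_Vehicle and 878.6 and 1181.1 in Sham_Vehicle. Its log2 difference from Sham_Vehicle was -0.56 ± 0.20 (limma adjusted p = 0.259), without overlap. The mean over probe sets was -0.12 for Hadhb in that comparison.

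The other mitochondrial enzymes were first compared on their brightest probe sets. The carnitine carrier Slc25a20, the carnitine acetyltransferase Crat, the dehydrogenases Acadvl, Acadm and Acads, Hadh, the thiolase Acaa2, Eci1, Decr1 and the electron transfer genes Etfa, Etfb and Etfdh had log2 differences of -0.24 to 0.40 for BDL_GW4064 against BDL_Vehicle. The range was -0.28 to 0.12 for BDL_Vehicle against Sham_Vehicle. Acaa2 (0.40), Slc25a20 (0.34), Acadvl (0.29) and Decr1 (0.27) were higher in BDL_GW4064 than in BDL_Vehicle without overlap (limma adjusted p = 0.69 to 0.773). Of all 17 mitochondrial members, 8 were higher without overlap there (47.1%, against 19.1% of all genes) and 0 lower (against 16.7%). The dimmer probe set of Slc25a20 differed more, reading 542.8 and 512.6 in BDL_GW4064, 355.4 and 350.5 in BDL_Vehicle and 428.1 and 353.8 in Sham_Vehicle. There, BDL_GW4064 was above BDL_Vehicle by 0.57 ± 0.15 (limma adjusted p = 0.364) and above Sham_Vehicle by 0.43 ± 0.15 (limma adjusted p = 0.24), without overlap. The electron carrier gene Etfa, whose promoter window is printed above, read 1416 and 1290 in BDL_GW4064, 1156 and 1388 in BDL_Vehicle and 1115 and 1219 in Sham_Vehicle, and BDL_GW4064 overlapped BDL_Vehicle. Probe sets disagreed for Hadh, whose dimmest one read 72.1 and 114.2 in BDL_GW4064, 203.5 and 124.5 in BDL_Vehicle and 201.4 and 310.9 in Sham_Vehicle, a log2 difference of -1.42 ± 0.32 against Sham_Vehicle (limma adjusted p = 0.176), where its 2 bright ones gave -0.05 and 0.01. Those of Acaa2 also differed in sign against Sham_Vehicle. They gave 0.13 and 0.04, and -0.40 ± 0.17 without overlap for the dimmest (limma adjusted p = 0.309). The median log2 difference of the 17 mitochondrial members was 0.20 in the GW4064 comparison and -0.04 in the ligation comparison, against 0 and -0.01 over all genes.

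**Figure D3:**
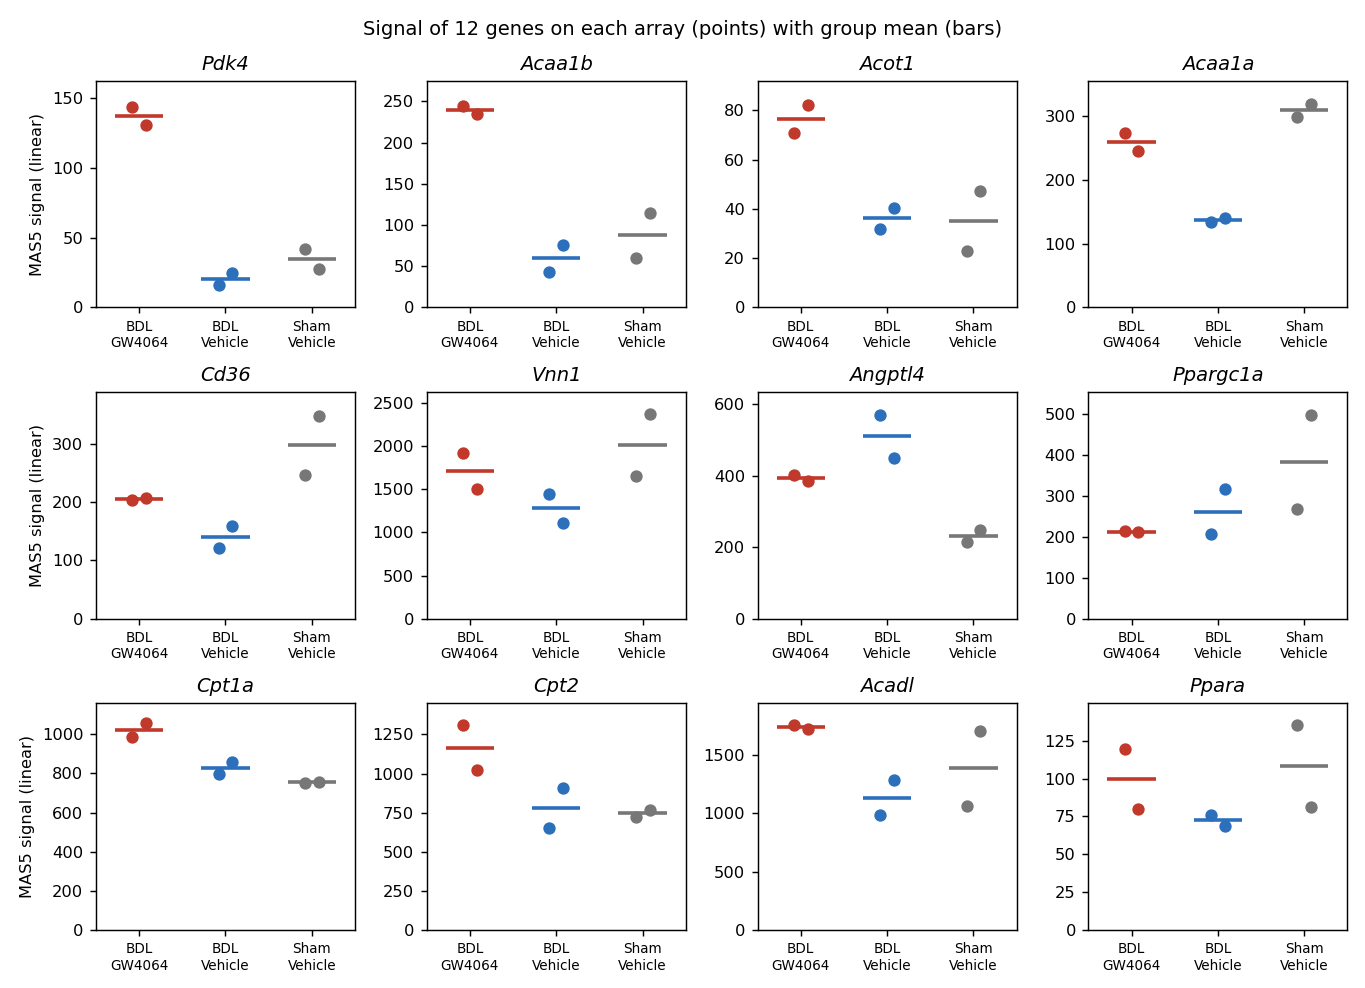
MAS5 signal (y axis, linear, from 0) of 12 members on each array (points) with the group mean (bars), for BDL_GW4064, BDL_Vehicle and Sham_Vehicle. Acaa1a is lowest in BDL_Vehicle, Pdk4, Acaa1b and Acot1 are highest in BDL_GW4064, and Angptl4 is highest in BDL_Vehicle.

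Among the lipid handling members, Cd36 and Vnn1 were lower in BDL_Vehicle than in Sham_Vehicle without overlap of arrays. Cd36, a fatty acid transporter of the cell surface that macrophages, endothelium and adipocytes express as well, read 203.9 and 208.0 in BDL_GW4064, 121.9 and 158.8 in BDL_Vehicle and 247.9 and 349.4 in Sham_Vehicle. The 3 groups did not overlap, and BDL_Vehicle was the lowest. BDL_Vehicle was below Sham_Vehicle by a log2 difference of -1.06 ± 0.21 (limma adjusted p = 0.448), and its other tested probe set gave -1.02. BDL_GW4064 was between them, at 0.55 ± 0.21 over BDL_Vehicle (limma adjusted p = 0.585) and -0.51 ± 0.21 against Sham_Vehicle (limma adjusted p = 0.303). The value against Sham_Vehicle was -0.26 without Sham_Vehicle replicate 2 and -0.88 with the 18S array set as a term. The 6 endothelial markers summed to 463.2 and 445.7 in BDL_GW4064, 243.1 and 259.7 in BDL_Vehicle and 244.1 and 315.9 in Sham_Vehicle, and the 7 macrophage markers to 2784 and 2512, 2254 and 1703, and 1404 and 1633 in the same order of groups. The part of these cells in the Cd36 values was not tested. Vnn1, a pantetheinase made by enterocytes, read 1926 and 1506 in BDL_GW4064, 1445 and 1115 in BDL_Vehicle and 1650 and 2371 in Sham_Vehicle. BDL_Vehicle was below Sham_Vehicle by a log2 difference of -0.64 ± 0.21 (limma adjusted p = 0.751), which was -0.38 without Sham_Vehicle replicate 2.

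Acot1, a cytosolic acyl-CoA thioesterase, was dim in all groups and highest in BDL_GW4064. It read 70.9 and 82.2 in BDL_GW4064, 32.0 and 40.3 in BDL_Vehicle and 23.1 and 47.2 in Sham_Vehicle, and 1 array in each vehicle group lay above 37.1. BDL_GW4064 exceeded BDL_Vehicle by 1.01 ± 0.34 (limma adjusted p = 0.525) and Sham_Vehicle by 1.11 ± 0.34 (limma adjusted p = 0.216), the last being 0.65 without Sham_Vehicle replicate 1. Like Pdk4, it was tested only because of its BDL_GW4064 arrays, since its vehicle arrays averaged 5.27 on the log2 scale, under the filter edge. Plin2, which coats lipid droplets, read 924.4 and 898.3 in BDL_GW4064, 639.1 and 807.5 in BDL_Vehicle and 631.7 and 744.9 in Sham_Vehicle, with 0.41 ± 0.16 over Sham_Vehicle (limma adjusted p = 0.276) and 0.07 with the 18S array set as a term.

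Fabp1, the fatty acid binding protein of liver and gut, was split within groups. It read 3514 and 2448 in BDL_GW4064, 967.1 and 2612 in BDL_Vehicle and 942.6 and 2375 in Sham_Vehicle. Replicate 1 of both vehicle groups was low, and the other four arrays were high, on this and on its dimmer probe set. Its standard error of 0.52 was the largest of the 34 members.

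The classes were set side by side on each array through the median log2 deviation of their genes from each gene's mean over the 6 arrays. For all 34 members this was 0.18 and 0.10 in BDL_GW4064, -0.23 and 0.06 in BDL_Vehicle and -0.14 and 0.03 in Sham_Vehicle. Replicate 2 of BDL_Vehicle therefore lay closer to BDL_GW4064 than to its own replicate. The mitochondrial median was 0.14 and 0.09, -0.18 and 0.09, and -0.13 and -0.01 in the same order of groups. The peroxisomal median was 0.28 and 0.14, -0.24 and 0.04, and -0.18 and 0.13. The regulatory median, over 5 genes of opposite behaviour, was 0.16 and 0.10, -0.24 and 0.14, and -0.14 and -0.15. The lipid handling median was 0.27 and 0.23, -0.45 and -0.15, and -0.28 and 0.31. Both BDL_Vehicle arrays lay below both BDL_GW4064 arrays in the peroxisomal and lipid handling medians, but not in the regulatory one, and the mitochondrial medians met at 0.09.

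**Figure D4:**
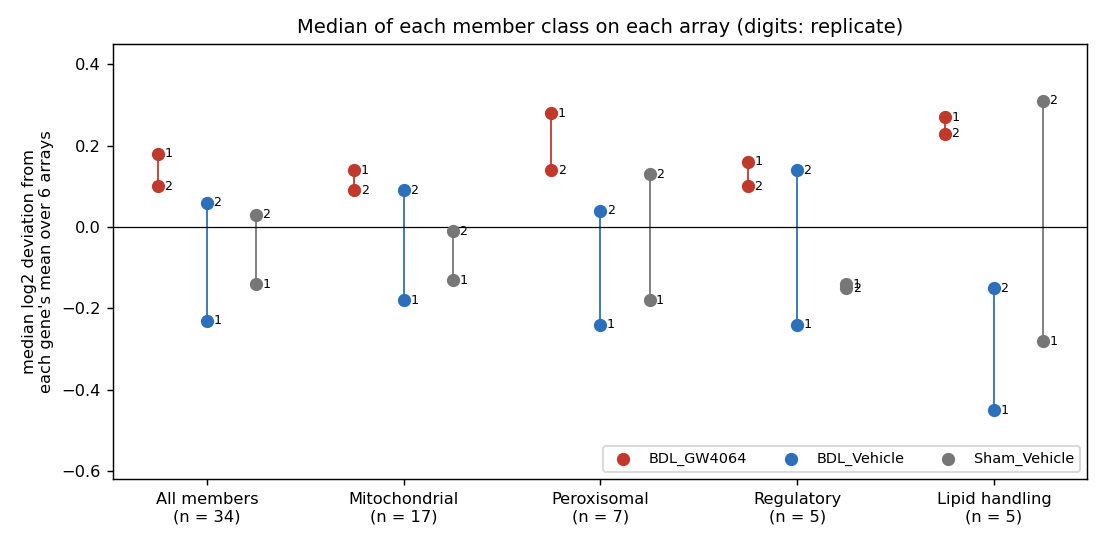
Median log2 deviation (y axis) of each class on each array, with digits for the replicate and lines between arrays of a group. For all members the BDL_Vehicle arrays lie at -0.23 and 0.06, on either side of Sham_Vehicle.

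With GW4064, 29 of 34 members had higher values than in BDL_Vehicle (85.3%), against 50.4% of all genes, with a median log2 difference of 0.28 against 0. Without overlap of arrays, 18 were higher (52.9%, against 19.1% of all genes) and 1, Angptl4, was lower (2.94%, against 16.7%). Without BDL_Vehicle replicate 1, 23 of 34 were higher and the median was 0.13, and the mitochondrial median was 0.05. Without BDL_Vehicle replicate 2, 32 of 34 were higher and the median was 0.35. The size of this shift thus rested on which BDL_Vehicle array was used, while Acaa1b was at 1.60 and Acaa1a at 0.87 without replicate 1. Without Pdk4 and Acot1, the 2 members that passed the filter only through BDL_GW4064, 27 of 32 were higher, 6 of them at an unadjusted p under 0.05, and the median was 0.27. Of these 32, 16 were higher without overlap and 1 lower. Without BDL_GW4064 replicate 2, 30 of 34 were higher. With the 18S array set as a term the GW4064 values equal those without BDL_Vehicle replicate 1, since only BDL_Vehicle has an array in each set.

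After ligation, 15 of 34 members had higher values (44.1%, against 47.9% of all genes) and 19 lower than in Sham_Vehicle. The median was -0.05 against -0.01 over all genes. Without overlap, 2 were higher (Cpt1a and Angptl4, against 18.1% of all genes) and 9 lower (26.5%, against 19.7%). These counts were unsteady, with 3 of 34 higher without BDL_Vehicle replicate 2, 21 without BDL_Vehicle replicate 1, 8 without Sham_Vehicle replicate 1 and 19 without Sham_Vehicle replicate 2. Against Sham_Vehicle, BDL_GW4064 had higher values in 22 of 34 members (64.7%, against 51.8% of all genes), with a median of 0.23 against 0.01 over all genes. There, 20 were higher without overlap (58.8%, against 25% of all genes) and 4 lower (11.8%, against 24%), the 4 being Acaa1a, Ehhadh, Ppargc1a and Cd36. The 20 include Pdk4 and Acot1, which were tested only because of their BDL_GW4064 arrays. Without these, 18 of 32 were higher without overlap and 4 lower. With the 18S array set as a term, the count of members with higher values than in Sham_Vehicle was 15 of 34 (44.1%, against 52.5% of all genes).

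**Figure D5:**
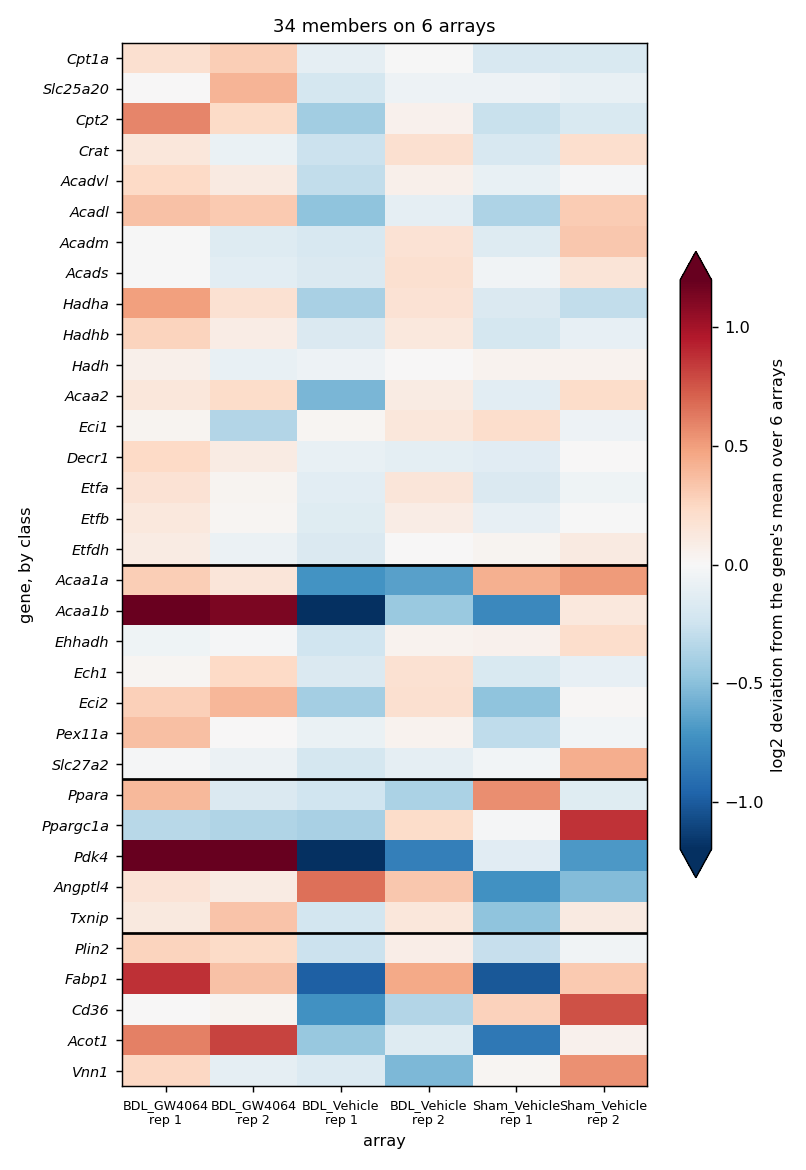
Log2 deviation of each of the 34 members (rows, by class) from its mean over the 6 arrays (columns), with colours capped at the ends of the scale bar. BDL_Vehicle replicate 1 is low across most rows, and Pdk4 and Acaa1b are high in both BDL_GW4064 arrays.

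A wider list of 64 pathway genes had 45 that were tested, and 0 passed in any comparison (limma). With GW4064, 32 were higher and 13 lower than in BDL_Vehicle, with a median of 0.10, and 6 were higher and 0 lower at an unadjusted p under 0.05. Over all genes, 50.4% were higher, with 5.06% higher and 2.41% lower at that p. The peroxisomal reductase gene Pecr read 226.9 and 287.6 in BDL_GW4064, 128.4 and 125.5 in BDL_Vehicle and 187.4 and 189.2 in Sham_Vehicle, with 0.99 ± 0.17 over BDL_Vehicle (limma adjusted p = 0.19). The 3 groups did not overlap, and BDL_GW4064 was the highest. The thioesterase Acot4 had 1.06 ± 0.27 (limma adjusted p = 0.367) and Acot12 0.72 ± 0.24 (limma adjusted p = 0.497). The coactivator Ppargc1b read 458.8 and 348.6 in BDL_GW4064, 293.5 and 264.9 in BDL_Vehicle and 275.2 and 291.3 in Sham_Vehicle, highest in BDL_GW4064, with 0.51 ± 0.17 over BDL_Vehicle (limma adjusted p = 0.521). The lipases Mgll (1.00 ± 0.31) and Lpl (1.21 ± 0.39) were highest in BDL_GW4064 replicate 2, at 223.1 and 160.2, the array with the highest smooth muscle and adipose sums, and the part of those cells in the 2 values was not tested. After ligation, Acot12 (-0.68 ± 0.24) and Pecr (-0.55 ± 0.17) were the 2 at an unadjusted p under 0.05, both lower, with limma adjusted p of 0.751 for each, where 3.04% of all genes were lower at that p.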

How the data were processed

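Gene expression in ileum RNA was measured on 6 Affymetrix Mouse Genome 430A 2.0 arrays, from 5 µg of total RNA per sample per the labels' protocols. The deposited values were intensity values on a linear scale, named MAS5 in the submitters' processing notes, with version, settings and detection calls not given in the sources used here. Their mean after trimming 2% at each end was 200.1 on every array. Signals were analysed as log2(signal + 4) with 64 control probe sets and the lowest 40% by mean removed, which left 13575 of 22690 probe sets. A signal of 37.1, the edge of that filter, served as the floor for dim groups. Groups were compared with limma 3.58.1 in R 4.3.3, with all 6 arrays, 1 mean per group, a variance trend and 3 residual degrees of freedom plus 4.71 from the prior, and the script was tested on simulated data. Each gene was represented by its brightest probe set. Symbols came from the platform annotation, and RefSeq held all 35 member identifiers with 0 symbols that differed. Arrays have no depth, and 2 per group limit the precision. Members, classes and lists were chosen with earlier results of these data known. Values array by array were given for members with an unadjusted p under 0.05 in any comparison and for Ppara, Ppargc1a and Cpt1a, and Txnip, Etfa, Fabp1, single probe sets and the genes in the signal and probe set plots were added after their values were seen. The 18S split at a signal of 40 was also set with earlier results known. Other pathway genes were named by smallest p, up to 6. The alternatives were scaling, pseudocount, filter, prior, arrays in the fit, replicate block, the 18S array set, each array left out and probe sets averaged. Counts of members with higher values were recomputed without each array, and without members that passed the filter only through BDL_GW4064, after the data were seen.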

Additional observations from a re-analysis of the deposited data

How the results depend on the processing

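Members passing numbered 0 in all settings of the ligation and combined comparisons. In the GW4064 comparison the count was 1 (Pdk4) with median centring, a pseudocount of 16, a robust prior or probe sets averaged. Pdk4 was tested only because of its BDL_GW4064 arrays, so this count is a description and not a call. Probe sets passing after ligation were 4, and 2 with no filter, 1 without the trend, 2 with the replicate block, and 1 to 6 with an array left out. With GW4064 they were 7, and 4 with no filter, 2 without the trend, 12 with a robust prior, 4 with the replicate block, 2 with the 18S array set as a term, and 2 to 48 with an array left out. For BDL_GW4064 against Sham_Vehicle they were 5, and 0 without the trend, with the replicate block or with the array set, and 0 to 29 with an array left out. Same-numbered arrays correlated at -0.119, 0.094 and 0.037 in their deviations. With 2 arrays per group this cannot settle whether the numbers pair the samples, and the replicate block changed no call of a member. The cause of these changes was not tested.

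Adding the 18S set to the model, medians after ligation were -0.22 (all members) and -0.45 (lipid handling), those with GW4064 0.13 (all), 0.05 (mitochondrial) and 0.09 (regulatory), and those for BDL_GW4064 against Sham_Vehicle -0.04 (all), -0.10 (mitochondrial), -0.09 (peroxisomal), 0.05 (regulatory) and 0.07 (lipid handling). There, 3 of 34 members were higher after ligation. With the filter at 60% the regulatory median was 0.15 after ligation and -0.26 with GW4064, the lipid handling median was -0.29 after ligation and 0.10 against Sham_Vehicle, and the peroxisomal median was 0.06 against Sham_Vehicle, because fewer members were left. With probe sets averaged, the mitochondrial median against Sham_Vehicle was 0.02 and the regulatory one 0.67. In the same setting Cpt1a was -0.08 with GW4064 and -0.36 against Sham_Vehicle, and Hadhb -0.12, all of opposite sign, and Eci2 was -0.02 with the array set.

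With an array left out, medians after ligation were -0.22 to 0.10 (all), -0.15 to 0.11 (mitochondrial), -0.37 to -0.06 (peroxisomal), -0.51 to -0.07 (regulatory) and -0.58 to 0.23 (lipid handling). Those with GW4064 were 0.13 to 0.35, 0.05 to 0.29, 0.15 to 0.39, 0.09 to 0.35 and 0.37 to 0.74 in the same order, and those against Sham_Vehicle 0.16 to 0.29, 0.09 to 0.27, 0.17 to 0.32, 0.26 to 0.71 and 0.29 to 0.53. Members with higher values numbered 3 to 21 after ligation. Leaving out the 2 members that passed the filter only through BDL_GW4064 kept these counts within 1.5 times. A group left with 1 array is assumed to vary like the others. Signal near background limits Pdk4, Acot1 and Ppara.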
